A study of Lemna aequinoctialis with 6 samples.

Results

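Genes for RuBisCO, its assembly and the Calvin cycle, 8 in all, were followed in the duckweed Lemna aequinoctialis, a tiny plant that floats on water, with and without indole-3-propionic acid (IPA), whose structure resembles that of the plant hormone auxin. The members were the transcripts in the authors' deposited list of changed transcripts whose gene description named RuBisCO, ribulose, chloroplastic glyceraldehyde-3-phosphate dehydrogenase, fructose-1,6-bisphosphatase, sedoheptulose, phosphoribulokinase, chloroplastic phosphoglycerate kinase or transketolase, with the large chain of RuBisCO left out. This gave 16 transcripts of 8 genes, out of 5093 transcripts in that list and 81787 transcripts of 28620 genes in the whole table. RNA of 6 samples was sequenced after poly(A) selection, 3 from plants labelled control and 3 from plants labelled as treated with indole-3-propionic acid. The labels give the species, a plant cell source and the treatment, and the sources used here state neither dose nor duration, nor whether each sample was its own culture, so the spread between samples may be technical. The comparison belongs to a study of growth and of the yield of useful metabolites under IPA.

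The Calvin cycle fixes carbon dioxide in the chloroplast stroma. RuBisCO joins it to ribulose bisphosphate, the product is reduced with NADPH to triose phosphate, and most of that triose phosphate is rearranged to renew the acceptor. RuBisCO is assembled from large subunits, made in the plastid and folded by a chaperonin, and from small subunits, which a family of nuclear genes encodes and the plastid imports.

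The members covered only some of these steps. They were the small subunit (4 transcripts of 2 genes), subunit alpha of the RuBisCO large subunit-binding protein, which is the plastid chaperonin (3 transcripts of 2 genes), RuBisCO activase (3 transcripts of 1 gene), the A subunit of chloroplastic glyceraldehyde-3-phosphate dehydrogenase (1 transcript) and chloroplastic fructose-1,6-bisphosphatase (5 transcripts of 2 genes). For 4 terms of the rule, sedoheptulose, phosphoribulokinase, chloroplastic phosphoglycerate kinase and transketolase, 0 transcripts were found. Descriptions were given only for transcripts that the authors had listed, so other transcripts of these enzymes carry no name here and were not analysed. The description said chloroplastic in 15 of the 16 members, the exception being a chaperonin fragment, and nuclear origin is known from other plants and was not measured.

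The libraries held between 30149649 and 45233584 reads, recovered from the deposited normalised read counts. The 20 most abundant transcripts of a library took 15.9 to 35.2% of reads in control and 7.84 to 10.1% in IPA, and this share moved with treatment beside every result below; its part in them was not tested. Levels are normalised read counts, given as mean ± SD with n = 3 per group. Differences are log2 of IPA minus control on the log2(value + 0.5) scale with SE from limma, which understates changes at low levels. Transcript lengths were not used here, so levels are not compared between genes. Assembled isoforms of a gene share sequence, and how reads that match several of them were assigned was not given in the sources used here, so isoforms of a gene are not independent.

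All 16 members were higher in IPA in the authors' list, which had selected them on this same contrast; 3.16% of all 81787 deposited transcripts are in that list as higher in IPA. Per the authors' deposited table their log2 fold changes ran from 1.01 to 1.44 and their FDR from 3.88e-06 to 0.010, while the list as a whole reached down to an absolute log2 fold change of 1.00 and up to an FDR of 0.050. The member just inside the fold limit was activase isoform i16 (authors' deposited log2 fold change 1.01). Nearest to the limit among the isoforms of these genes that the list leaves out were small subunit isoform DN3212 i27 and glyceraldehyde-3-phosphate dehydrogenase isoform DN4094 i2, with log2 differences of 0.98 ± 0.21 and 0.97 ± 0.24 in the limma fit used here. In that fit 16 of 16 members passed an FDR of 0.05 in the direction of IPA, where 4.49% of all 78722 transcripts tested did. Control and IPA libraries did not overlap in any of the 16, against 16.6% of all transcripts tested that were higher in IPA without overlap. Since the contrast chose the members, these counts describe the selection and nothing is read from them. The median log2 difference over the 8 genes, listed isoforms summed, was 1.18, and over all transcripts tested 0.02.

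**Figure D1:**
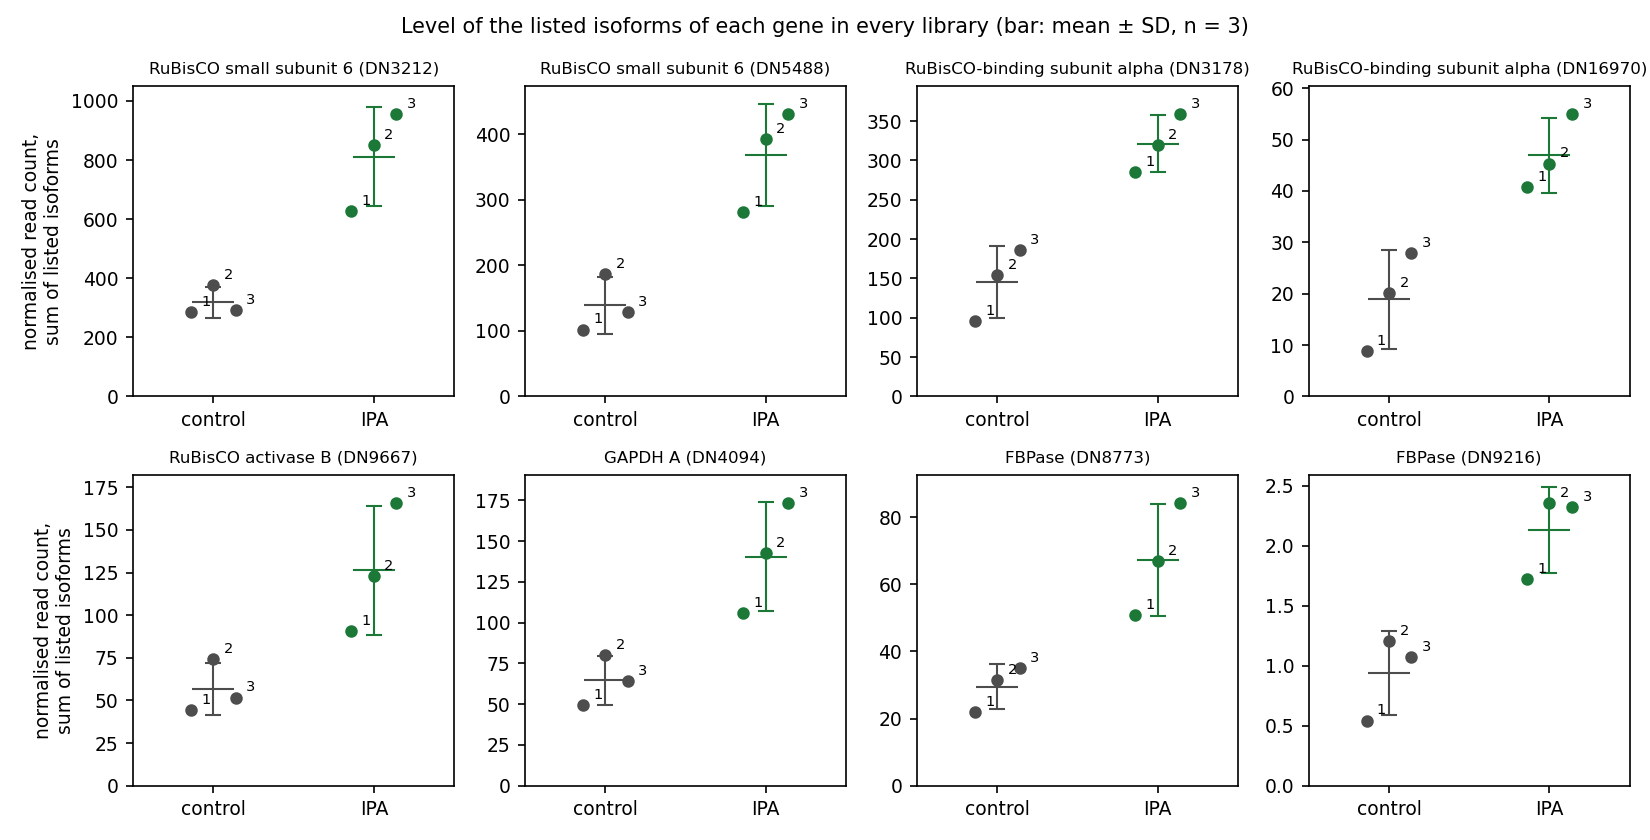
Normalised read count of the listed isoforms of each gene, summed, in each library (numbered points), with mean ± SD of 3 libraries per group on a linear axis from 0. In each of the 8 panels the IPA libraries lie above the control libraries, control 1 is the lowest control and IPA 1 the lowest IPA library.

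The small subunit of RuBisCO, the part of the enzyme that the nucleus supplies, was represented by the genes DN3212 and DN5488, both described as small subunit 6. In DN3212 the listed isoform with the highest mean, i42, stood at 148, 193 and 150 in control 1, 2 and 3 and at 311, 427 and 470 in IPA 1, 2 and 3. The lowest IPA library was 1.62 times the highest control, and control 1 and control 3 lay close together. Its group means were 163 ± 25.2 and 403 ± 82.1, a 2.46-fold difference (log2 1.29 ± 0.21), and isoform i19 differed by 1.39 ± 0.21.

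In DN5488 the isoform i6 was at 88.2, 160 and 110 in control and at 237, 331 and 377 in IPA. Control 2 was the highest control library in this gene too, and the groups were separated by a factor of 1.49. Group means of 119 ± 36.5 and 315 ± 71.0 gave a 2.64-fold difference (log2 1.41 ± 0.25), and the other isoform, i1, differed by 1.45 ± 0.25. With a family of near-identical small subunit genes, reads may be divided among copies, so which copy changed is uncertain.

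DN3212 also held 4 isoforms that the authors did not list, and these carried most of its reads. Isoform i30 was at 830, 623 and 548 in control and at 813, 1017 and 1031 in IPA. IPA 1 lay below control 1 there, so the groups overlapped, and the log2 difference was 0.53 ± 0.21. Isoforms i25, i34 and i27 differed by 0.86 ± 0.23, 0.58 ± 0.21 and 0.98 ± 0.21. The listed isoforms together made up 15.1, 22.3 and 20.8% of the gene's normalised reads in control and 26.5, 27.2 and 28.1% in IPA, which is a share of reads and not of molecules. Summed over all 6 isoforms, DN3212 went from 1661 ± 245 to 2965 ± 534, a 1.78-fold difference (log2 0.83 ± 0.22), against a 2.55-fold difference for the listed isoforms alone. The gene total thus changed less than the transcripts by which the gene entered the list.

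The large chain of RuBisCO, the plastid-encoded partner subunit, is no member, and its sole described transcript was at 22.0, 11.4 and 3.36 in control and 3.27, 2.89 and 5.26 in IPA. Its groups overlapped, with control 3 among the IPA values, and its log2 difference was -1.27 ± 0.57, opposite in sign to that of the small subunits; it did not pass limma's threshold. Transcripts made in the plastid are poorly represented after poly(A) selection in general.

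Subunit alpha of the RuBisCO large subunit-binding protein belongs to the plastid chaperonin that folds newly made large subunits. The gene DN3178 had the listed isoform i3 at 48.8, 82.0 and 101 in control and at 149, 167 and 187 in IPA. Control values were spread over a wider fold range than IPA values, with control 1 well below the other two. Means of 77.1 ± 26.2 and 168 ± 19.1 gave a 2.18-fold difference (log2 1.17 ± 0.25). Isoform i2 differed by 1.20 ± 0.23, and the unlisted i4 by 0.70 ± 0.21 (24.5, 29.6 and 42.6 in control, 47.6, 51.5 and 55.7 in IPA). These isoforms carry different UniProt-derived descriptions, one of them a fragment, although they come from one assembled gene.

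The other chaperonin gene, DN16970, had a single isoform, described as a fragment, at 8.78, 20.1 and 27.9 in control and 40.7, 45.3 and 54.9 in IPA. As a ratio, its control values were spread more widely than those of the other members (control 3 was 3.18 times control 1), and its SE on the log2 scale was the largest of the 16, with means of 18.9 ± 9.62 and 47.0 ± 7.28 (2.48-fold, log2 1.42 ± 0.36).

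RuBisCO activase, an ATP-dependent protein that frees the active sites of RuBisCO from bound sugar phosphates, was represented by DN9667 with 3 listed isoforms of 7. Isoform i13 stood at 18.5, 33.6 and 23.3 in control and at 41.6, 57.0 and 80.9 in IPA. IPA 3 lay well above IPA 1, the widest relative spread within IPA among the isoforms described library by library, and IPA 1 exceeded control 2 by a factor of 1.24. Means were 25.1 ± 7.73 and 59.8 ± 19.8 (2.38-fold, log2 1.23 ± 0.28), and isoforms i20 and i16 differed by 1.12 ± 0.25 and 0.98 ± 0.23.

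The 4 unlisted activase isoforms carried more of the gene's reads than the listed ones and had log2 differences of 0.78 to 0.95. The most abundant of them, i12, was at 64.1, 83.7 and 64.8 in control and 102, 132 and 175 in IPA, again without overlap (log2 0.91 ± 0.22). Listed isoforms held 20.8 ± 2.30% of the gene's reads in control and 23.9 ± 0.740% in IPA. The sum over 7 isoforms went from 270 ± 46.1 to 526 ± 142 (1.95-fold, log2 0.94 ± 0.22).

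In the reduction step, the A subunit of chloroplastic glyceraldehyde-3-phosphate dehydrogenase, which uses NADPH to make triose phosphate, was represented by DN4094. Its listed isoform i5 was at 49.6, 80.0 and 64.0 in control and at 106, 142 and 173 in IPA. The order of libraries was that of activase, with control 2 the highest control and IPA 3 the highest IPA library. Means were 64.5 ± 15.2 and 140 ± 33.6 (2.18-fold, log2 1.11 ± 0.24). The unlisted i2 and i3 differed by 0.97 ± 0.24 and 0.91 ± 0.22, and i2 was at 51.0, 80.4 and 63.0 in control and 93.9, 132 and 158 in IPA. The 3 isoforms summed to 182 ± 40.9 and 368 ± 87.3 (2.02-fold).

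In the regeneration of the acceptor, fructose-1,6-bisphosphatase, which removes a phosphate from fructose bisphosphate and is switched on in light through thioredoxin, was represented by DN8773 and DN9216. All 4 isoforms of DN8773 were listed, and i3 was at 6.31, 9.29 and 9.61 in control and at 14.6, 18.5 and 23.3 in IPA. Means of 8.40 ± 1.82 and 18.8 ± 4.35 gave a 2.24-fold difference (log2 1.11 ± 0.23), and the log2 differences of the other 3 were 1.08, 1.09 and 1.29.

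DN9216 behaved unlike DN8773 once its other isoforms were counted. Its sole listed isoform, i1, was at 0.543, 1.21 and 1.08 in control and 1.72, 2.35 and 2.32 in IPA, from 18 to 115 reads per library, with means of 0.942 ± 0.352 and 2.13 ± 0.355 (2.26-fold, log2 0.89 ± 0.24, a scale on which the change of such a low transcript is understated). The isoform with the highest mean, i6, was unlisted and stood at 3.53, 4.29 and 4.25 in control and 4.68, 6.59 and 6.57 in IPA (log2 0.50 ± 0.20). Unlisted isoform i4 was at 4.74, 3.75 and 4.67 in control and 3.30, 5.32 and 4.77 in IPA, with a log2 difference of 0.01 ± 0.21. Listed i1 made up 5.90, 11.5 and 9.73% of the gene's reads in control and 15.3, 14.5 and 15.3% in IPA. The gene total of 10.2 ± 0.942 in control and 14.2 ± 2.61 in IPA (1.39-fold, log2 0.45 ± 0.20) did not pass limma's FDR of 0.05.

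**Figure D2:**
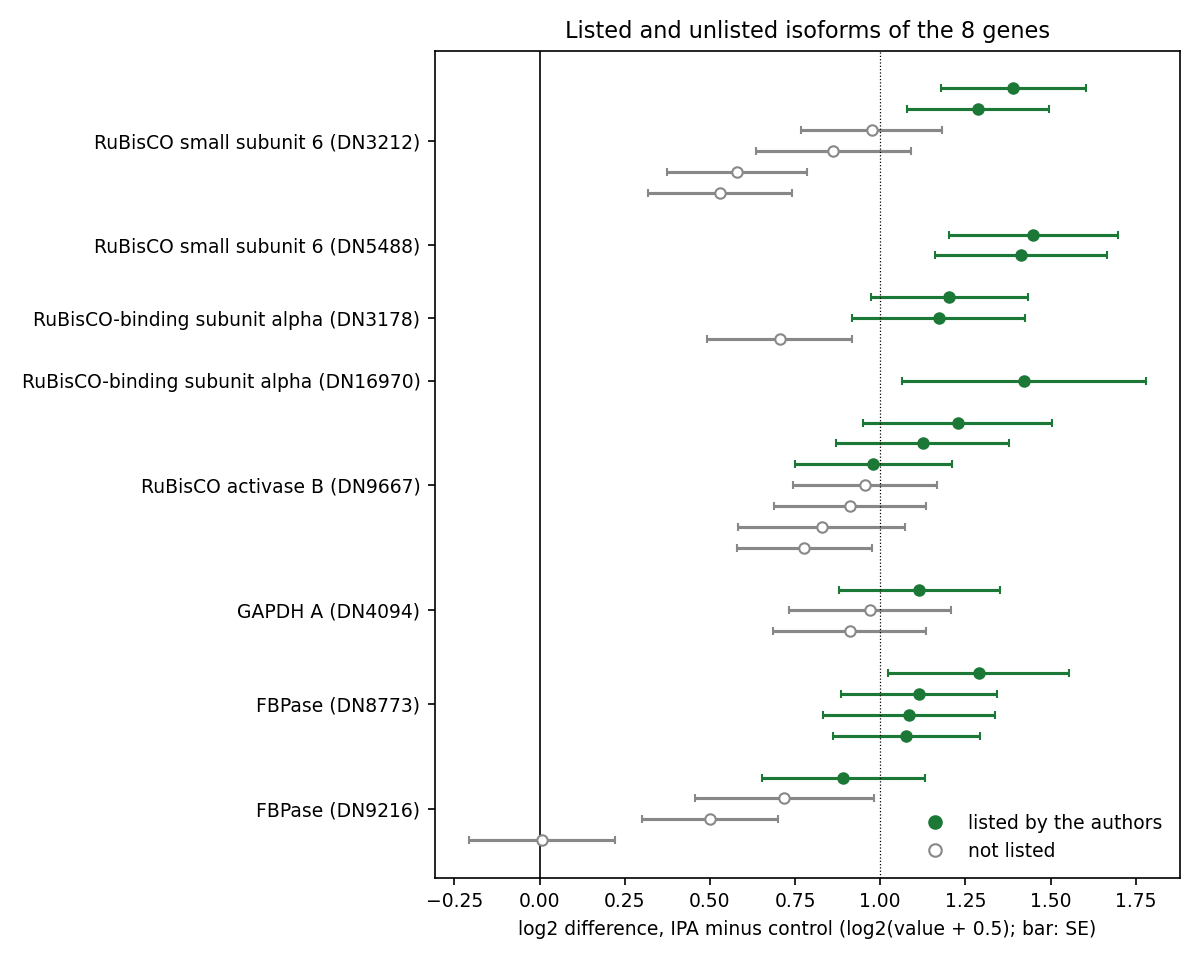
Log2 difference, IPA minus control, with SE for every isoform of the 8 genes, filled where the authors listed it and open where not; the dotted line marks a log2 difference of 1. Listed isoforms run from 0.89 to 1.45 and unlisted isoforms from 0.01 to 0.98.

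Over the 8 genes there were 30 isoforms, 16 listed and 14 unlisted. All 14 unlisted isoforms had log2 differences above 0 (0.01 to 0.98, median 0.80), although that of DN9216 i4 was below 0 with DESeq2 size factors (-0.01) and without control 2, IPA 2 or IPA 3 (-0.09, -0.12 and -0.05). The groups did not overlap in 12 of them, and 7 passed limma's FDR of 0.05 higher in IPA, beside 4.49% of all transcripts. Without control 2, IPA 2 or IPA 3 limma passed 0 of the 14, with 12, 9 and 10 at an unadjusted limma p under 0.05. They belong to genes picked for their listed isoforms and may share reads with them, so this count too is a description. Of gene totals, 7 of 8 passed, all higher in IPA, where 5.65% of 27203 gene totals tested were higher at that threshold. The median log2 difference of the gene totals was 1.06, and over all gene totals 0.05. In the 5 genes with unlisted isoforms, the share of reads in listed isoforms was higher in every IPA library than in every control library. Listing took the isoforms with the larger differences, so the direction of this shift follows from the choice. Its size ranged from 2.75 percentage points in DN4094 to 7.89 in DN3212.

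**Figure D3:**
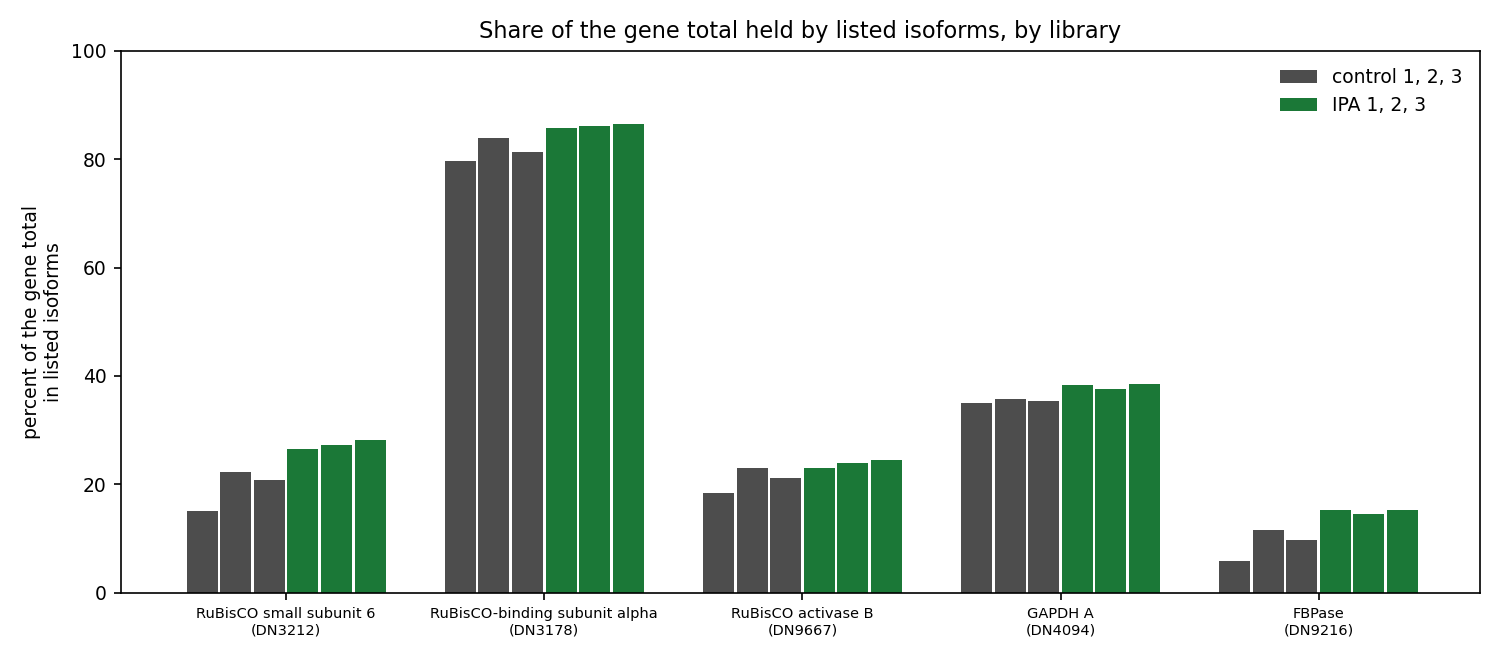
Percent of a gene's normalised reads held by its listed isoforms in each library, for the 5 genes that also have unlisted isoforms. In DN3212 the share goes from 15.1 to 22.3% in control to 26.5 to 28.1% in IPA, and in DN4094 from 35.0 to 35.8% to 37.6 to 38.5%.

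Among the members, which are listed isoforms only, the libraries kept a common order. Control 1 was the lowest control library in 16 of 16 members, as it was in 40.2% of all transcripts tested, and IPA 1 the lowest IPA library in 16 of 16 (36.3% of all). IPA 3 was the highest IPA library in 14 (39.4% of all). The order did not hold for every isoform of these genes. In DN3212 the unlisted isoforms summed to 1601, 1319 and 1109 in control 1, 2 and 3. Its gene total was 1886, 1696 and 1400, so control 1 was the highest control there. Between control 2 and control 3 the listed isoforms, summed per gene, divided. Control 2 was the highest control for both small subunit genes, activase, glyceraldehyde-3-phosphate dehydrogenase and DN9216. Control 3 was the highest for both chaperonin genes and DN8773. Centred on each gene's mean, control 3 lay at -0.02 and -0.19 in the chaperonin genes DN16970 and DN3178, and at -0.79 and -0.77 in the small subunit genes DN3212 and DN5488.

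**Figure D4:**
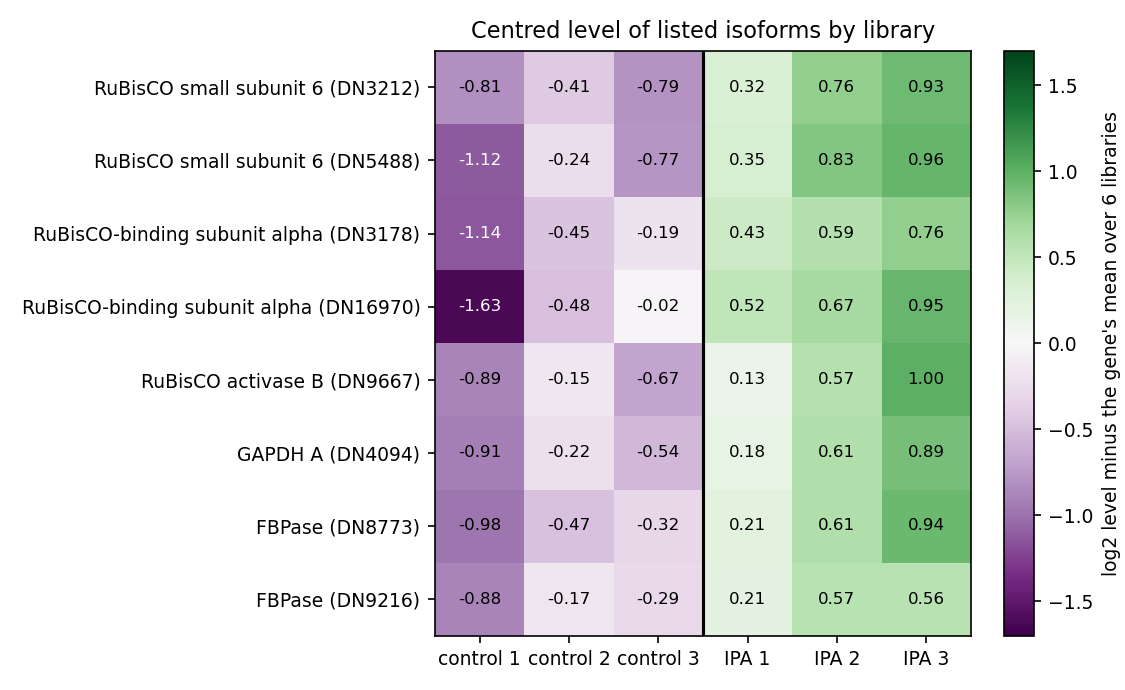
Log2 level of the listed isoforms in each library, minus the gene's mean over 6 libraries, for each of the 8 genes. Control libraries are at or below -0.02 and IPA libraries at or above 0.13, and control 1 is the lowest in every row, down to -1.63 in DN16970.

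Of 2473 other described transcripts that averaged 2 or more in log2 CPM, the 5 whose centred log2 levels over the 6 libraries lay closest to the mean profile of the 8 genes were from other pathways. The closest was a probable 1-deoxy-D-xylulose-5-phosphate synthase, the entry enzyme of plastid isoprenoid synthesis, at a Euclidean distance of 0.11, followed by 5'-adenylylsulfate reductase 3, an enzyme of sulfate assimilation (0.11). Then came a nitrate transporter family member, NRT1/PTR family 6.3 (0.16), the probable inactive receptor kinase At5g10020 (0.16) and EIN3-binding F-box protein 2 of ethylene signalling (0.18). The 8 genes themselves lay 0.23 to 0.78 from their mean, with DN16970 the farthest. The 5 transcripts lay nearer, but they were picked as the nearest of 2473, so nothing is read from that. The distance is dominated by the difference between groups, and all candidates came from the authors' list.

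Other genes of the pathway were looked up in the same list, so they too had been chosen on these samples. That list held 2586 transcripts higher and 2507 lower in IPA, and the counts below are to be read beside this split. Aldolase, which forms the substrate of fructose-1,6-bisphosphatase, was the sole further cycle enzyme found, in 2 transcripts of 1 gene, and both rose. Its isoform i4 was at 145, 179 and 150 in control and 303, 443 and 577 in IPA (log2 1.44 ± 0.24), with control 2 and IPA 3 highest in their groups as for activase, and i3 differed by 1.55 ± 0.25. For carbonic anhydrase, triosephosphate isomerase, ribose-5-phosphate isomerase and CP12, and for chaperonins outside the members, the list held 0 transcripts.

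Photorespiration recycles the product of RuBisCO's oxygenase reaction. Of 11 transcripts whose description matched names of its enzymes, 6 rose, 4 fell and 1 did not pass. Those that rose included aminomethyltransferase of the glycine cleavage system (53.2, 77.1 and 66.1 in control, 135, 161 and 209 in IPA, log2 1.35 ± 0.22) and its H protein (log2 1.05 ± 0.22 in the most abundant isoform). All 4 that fell were isoforms of 1 gene described as alanine--glyoxylate aminotransferase 2 homolog 3, mitochondrial, at levels up to 2.26. They matched by name only, so a part of this gene in photorespiration was not shown. Without control 2 or IPA 2, 3 and 2 of the 11 passed in either direction, against 10 with all libraries.

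Of 15 glycolytic transcripts, which came from 5 genes, 13 rose. Most of these 13 were isoforms of the hexokinase gene DN949 or of DN6886, an NADP-dependent glyceraldehyde-3-phosphate dehydrogenase. The others that rose were cytosolic glyceraldehyde-3-phosphate dehydrogenases. The cytosolic form DN31963 i1 was at 96.6, 196 and 223 in control and 281, 364 and 417 in IPA (log2 1.11 ± 0.30), beside 1.11 ± 0.24 for the chloroplastic A subunit. Pyruvate kinase 1 supplied the 2 that fell, with isoform i4 at 77.5, 68.3 and 67.3 in control and 36.2, 30.6 and 24.3 in IPA (log2 -1.23 ± 0.19). Without control 2, 7 of the 15 passed as higher and 2 as lower in IPA. Without IPA 2 these counts were 0 and 2, and without IPA 3 they were 3 and 2. Plastid phosphate translocators were represented by 4 isoforms of a glucose-6-phosphate/phosphate translocator, all of which rose, among them isoform i1 from 16.4 ± 2.09 to 50.1 ± 6.50 (log2 1.58) and i5 from 20.1 ± 0.739 to 41.0 ± 2.89 (log2 1.01).

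Of 15 transcripts whose description named a thioredoxin, 10 fell, 2 rose and 3 did not pass. Of the 10 that fell, 4 were isoforms of 1 gene described as Thioredoxin-like 3-1 and 3 were isoforms of PLP3B, a phosducin-like protein of another function. Thioredoxin F-type, the form known to reduce fructose-1,6-bisphosphatase and named here after its values were seen, was at 17.9, 13.8 and 12.3 in control and 6.89, 6.65 and 8.11 in IPA (log2 -0.96 ± 0.19). Its groups did not overlap, in the direction opposite to both bisphosphatase genes. Thioredoxin-1 fell from 36.8 ± 9.80 to 17.5 ± 2.84 (log2 -1.03), and the inactive protein TTL3 rose from 45.4 ± 6.76 to 99.2 ± 14.1 (log2 1.12). Of all transcripts tested 3.87% fell at this threshold, but these 15 were taken from the authors' list, so that share is no measure for them. In the authors' list 2507 transcripts were lower and 2586 higher in IPA. Leaving out control 2, IPA 1, IPA 2 or IPA 3 changed the number of calls among the 15 from 12 to 5, 6, 2 and 6.

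RNA came from powdered plant material, per the labels' protocols, so a changed share of a cell type and a changed amount of RNA per cell cannot be told apart. Chlorophyll a-b binding proteins, used as markers of green tissue, rose in 43 of 43 listed transcripts, with a summed level of 1128 to 1741 in control and 5269 to 7301 in IPA. The root terms matched 2 listed transcripts, both described as ROOT PRIMORDIUM DEFECTIVE 1, and both rose (summed 2.14 to 4.30 and 6.94 to 7.67). They matched by name only, so they do not measure root tissue. Of the 53 listed transcripts matched as markers of dividing cells 14 rose, 7 fell and 32 did not pass. Their sums were 247 to 294 in control and 339 to 532 in IPA. That match took in 10 reverse transcriptase transcripts, and of the other 43 transcripts 12 rose and 4 fell. Of these 12, 8 were isoforms of 1 D-type cyclin gene, DN3388. Inhibitors of cyclin-dependent kinases were matched too: inhibitor 5 rose, inhibitors 6 and 7 fell and inhibitor 3 did not pass. No transcript of the replication licensing factors MCM2, MCM3 or MCM6 passed in limma, though all had higher means in IPA. Under DESeq2 23 of the 53 rose and 22 fell, and with library totals 25 rose and 8 fell. The 21 that passed became 3, 39, 11, 3 and 10 without control 2, control 3, IPA 1, IPA 2 and IPA 3. Without control 2 or any 1 IPA library limma passed 0 of the 2 transcripts of the root list (both had an unadjusted limma p under 0.05). In the dividing-cell list 4 transcripts were at 0 in at least 1 library, and in the green tissue and root lists none were. Stomatal markers matched 0 transcripts. The part of these markers in the levels of the 8 genes was not tested.

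The number of members that passed depended on single libraries. Their direction could not change when a library was left out, because the groups overlapped in none of them. Without control 2, IPA 2 or IPA 3, 4, 1 and 4 of the 16 passed limma's FDR of 0.05, and over all transcripts the percentage called in either direction fell from 8.37 to 1.93, 1.64 and 3.18. DN3212 i19 was the member that passed without each library in turn and under all 16 alternative settings, and DN9216 i1 passed under 8. Gene totals passed in 1, 0 and 1 of 8 without these libraries. The 0 was in limma without IPA 2, where 7 of 8 totals had an unadjusted limma p under 0.05. The log2 differences themselves stayed above 0 for 16 of 16 members under every setting, and with single libraries left out the median over the 8 genes ran from 0.97 without control 1 to 1.36 without IPA 1.

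**Figure D5:**
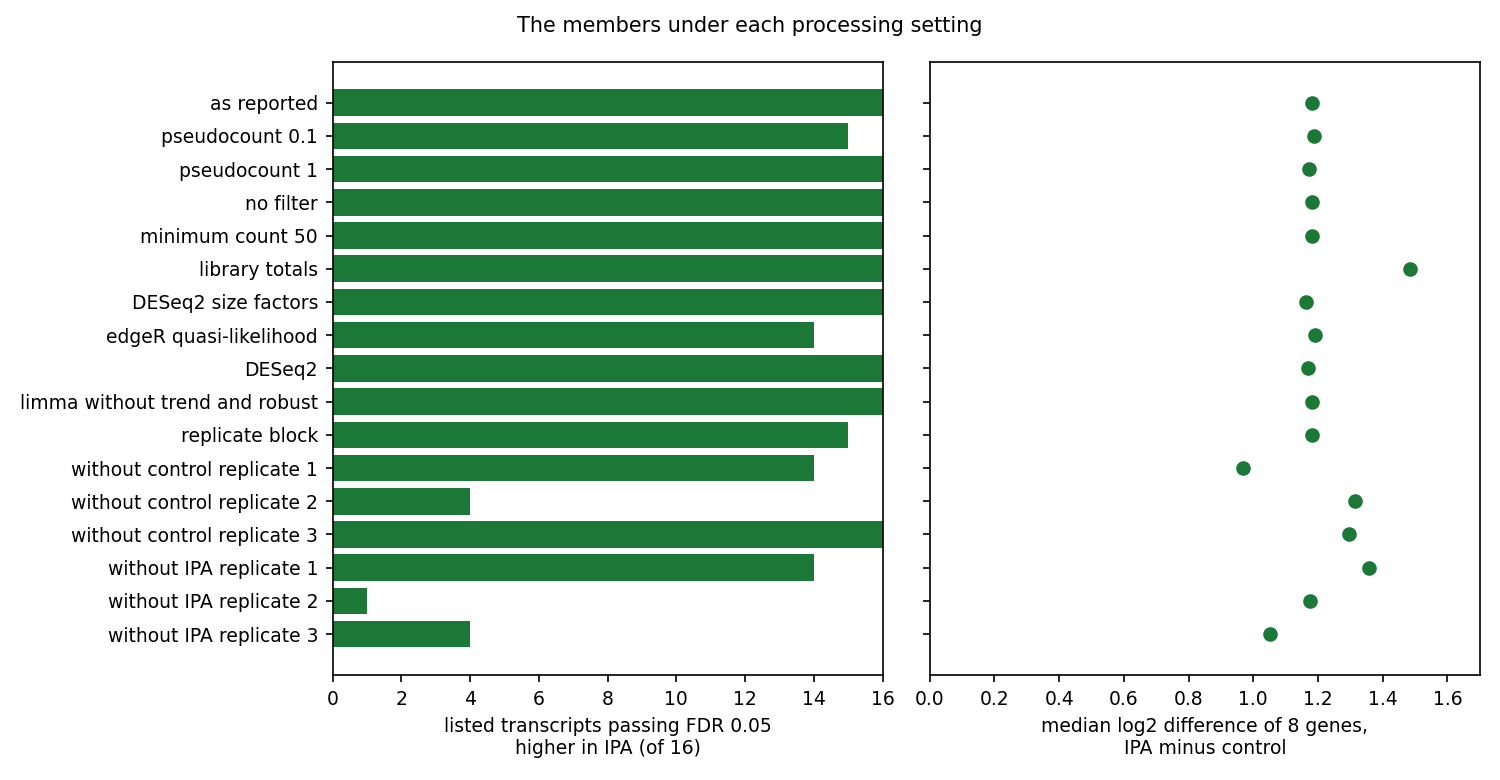
Left, members that passed limma's FDR of 0.05 (or that of the named tool) higher in IPA, of 16, under the reported settings and each of 16 alternatives; right, the median log2 difference of the 8 genes, IPA minus control. Counts drop to 4, 1 and 4 without control 2, IPA 2 and IPA 3, while the median stays between 0.97 and 1.48.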

How the data were processed

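Poly(A)-selected RNA libraries of 3 control and 3 IPA samples were read as 150-bp paired ends, per the labels' protocols. The authors deposited a table of normalised read counts (a signal scaled per library) for assembled transcripts, and a list of changed transcripts in which, per the file headers, each has an FDR, a p-value, a score from a likelihood-ratio test, and log2 values of the fold change and of the average CPM. BWA, featureCounts, edgeR, FastQC and Trimmomatic are named in the submitters' processing notes, without versions or settings. Deposited values were whole multiples of 1 read in 100% of cases within 0.01 reads, so reads were recovered; 1 read was worth 0.0205 to 0.0318. Columns of other samples numbered 0. A count test on these reads (edgeR, quasi-likelihood) called 6393 transcripts, against 6587 by limma.

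Low transcripts were removed with filterByExpr (edgeR 4.0.16; minimum count 10, minimum total 15; 78722 kept, all members among them). IPA was compared with control by limma 3.58.1 (trend, robust) in R 4.3.3 on log2(value + 0.5), with Benjamini-Hochberg adjustment over all transcripts, and likewise on sums per gene (transcript name without its isoform suffix). The fit was tested on simulated data. Groups and replicate numbers came from sample titles. Members, lists and tests were chosen with earlier results of these data known. Described library by library were, per gene, the listed isoform with the highest mean and the unlisted isoform with the highest mean; other isoforms are given by their differences, and some in full after their values were seen. In pathway lists the 2 transcripts with the highest mean are named, and any other was named after its values were seen. Alternatives were pseudocounts 0.1 and 1, other filters, scalings and tests (DESeq2 1.42.0 among them), a replicate block, and leaving out each library. No sequences were used.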

Additional observations from a re-analysis of the deposited data

How the results depend on the processing

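All 16 members kept a log2 difference above 0 under all 16 alternatives. They had been listed as higher in IPA and their groups did not overlap, so with a library left out this was fixed in advance. Among the unlisted isoforms DN9216 i4, which did not pass, went from 0.01 to -0.01 with DESeq2 size factors and to as low as -0.12 with a library left out. The count of members passing ran from 1 to 16 when single libraries were left out, that of gene totals from 0 to 7, and the median log2 difference of the 8 genes from 0.97 to 1.36. With an arm of 2 libraries, the spread is that pooled over both groups. Library totals in place of the authors' scaling moved the median of all transcripts to 0.25 from 0.02 and that of the 8 genes to 1.48, and 84.1% of calls were then higher in IPA against 53.7%. The calls over all transcripts numbered 11817 with library totals, 10358 with DESeq2 and 4377 with the replicate block, against 6587. Members passing were 16 with library totals, 16 with DESeq2, 14 with edgeR's quasi-likelihood test and 15 with a pseudocount of 0.1. With the replicate block 15 members and 6 gene totals passed; same-numbered samples did not deviate together (Pearson r across transcripts of -0.09, 0.08 and -0.13), so the numbers were not taken as pairs. Under edgeR and DESeq2 the median is over each gene's mean log2 change. For the 11 neighbouring lists that held transcripts, calls in either direction were counted together. These counts were within 1.5 times in 141 of 176 cases, higher in 4 and lower in 31. The split by direction could still move: without control 3, 8 sucrose transcripts rose and 8 fell, against 11 and 4. With the replicate block 4 sucrose transcripts passed against 15, and 7 thioredoxins against 12. Among the members, read depth was lowest for DN9216 i1, with 18 reads in its lowest library.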

Other observations

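Enzymes of carboxylation, decarboxylation and malate conversion outside the cycle also differed in the list that the authors chose on these samples. Of 16 transcripts whose description matched phosphoenolpyruvate carboxylase, malic enzyme or malate dehydrogenase, 11 rose, 3 fell and 2 did not pass limma's FDR of 0.05. Phosphoenolpyruvate carboxylase 2, which fixes bicarbonate in the cytosol, stood at 48.6, 92.8 and 100.4 in control 1, 2 and 3 and at 173, 204 and 206 in IPA 1, 2 and 3 in its most abundant isoform (log2 1.33 ± 0.26), and isoform i10 differed by 1.13 ± 0.27. The 14 that passed became 1, 1 and 3 without control 2, IPA 2 and IPA 3. The 3 that fell were isoforms of the mitochondrial NAD-dependent malic enzyme of 59 kDa, which releases carbon dioxide from malate, and its isoform i4 was at 14.9, 9.96 and 7.85 in control and 5.72, 5.32 and 5.29 in IPA (log2 -0.89 ± 0.23). The 11 that rose include a pair of matches from outside this group, phosphoenolpyruvate carboxylase kinase 1, a protein kinase, and 3-isopropylmalate dehydrogenase 1, of leucine synthesis. Without them 9 of 14 rose. These 9 include isoforms i1 and i2 of a chloroplastic malate dehydrogenase, DN3204, which is not a carboxylase.

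In the oxidative pentose phosphate pathway, which shares intermediates with the Calvin cycle, 3 of 6 transcripts rose, 1 fell and 2 did not pass. The one that fell, 6-phosphogluconate dehydrogenase 2, was at 132, 105 and 72.8 in control and 49.9, 48.5 and 43.4 in IPA (log2 -1.08 ± 0.22), and the chloroplastic 6-phosphogluconate dehydrogenase 1 of DN14498 had means of 6.47 ± 2.51 and 13.6 ± 4.88 (log2 1.01, not past the threshold). Without IPA 2, 2 of the 6 passed. Among 31 sucrose transcripts 11 rose, 4 fell and 16 did not pass, against 16 higher and 12 lower under DESeq2. All 11 that rose in limma were isoforms of the sucrose-phosphatase gene DN3888. All 4 that fell were isoforms of the UTP--glucose-1-phosphate uridylyltransferase gene DN7665, and isoforms of a gene are not independent. The most abundant transcripts were isoforms of sucrose-phosphatase, with means of 2.89 ± 0.245 and 6.53 ± 2.82 in the first (log2 0.98, not past the threshold) and 2.62 ± 0.652 and 6.52 ± 2.12 in the other (log2 1.15). Without control 2 or IPA 2 limma passed 0 of these 31, with 29 at an unadjusted limma p under 0.05 in each case. Without IPA 3 limma passed 1, which was lower in IPA.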
